A study of Homo sapiens with 12 samples.

Results

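The EGF receptor family described here consisted of 10 genes: the receptors EGFR, ERBB2 and ERBB3, the ligands AREG, EREG, HBEGF, TGFA, BTC and NRG1, and the receptor inhibitor ERRFI1. Members were taken as every probe set that the platform annotation assigns to one of these symbols alone, which gave 35 of the 54675 probe sets on the array and covered 9 of the 10 genes. AREG had no probe set under its symbol in the annotation used and was not analysed here. The series holds 12 arrays (Affymetrix U133 Plus 2.0) hybridised with RNA of 22Rv1 cells, a human line derived from a prostate carcinoma, with 3 arrays of vehicle-treated cells and 3 each after 4 h, 6 h or 16 h with one small molecule inhibitor. The series title describes the compound as directed against ONECUT2, a homeodomain transcription factor, and the labels give no dose. All groups were cultured in the same serum-containing medium. The vehicle arrays carry no treatment time, so compound and culture time cannot be told apart at 4 h, 6 h or 16 h against vehicle. The 16 h titles lack a number that the other titles carry. Any other difference behind those titles cannot be told apart from compound and culture time at 16 h either. No label says that the replicates were separate cultures, so the p-values measure array-to-array spread that may be technical.

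The EGF receptor family consists of membrane receptors whose intracellular part is a tyrosine kinase or a kinase-like domain. Ligands are made as membrane-anchored precursors, are cut free by metalloproteases and bring receptors together in pairs, and the paired receptors signal through RAS and the ERK kinases and through PI3 kinase and AKT. ERBB2 has no known ligand of its own, and ERBB3 has little kinase activity and depends on a partner. ERRFI1, also called MIG6, binds the kinase domain, blocks its activity and is itself induced by growth factor signalling, which makes it a feedback inhibitor. In prostate epithelium these receptors are known as growth and survival inputs beside the androgen receptor.

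The 250 bases upstream of the annotated start are shown for 3 genes of the family, from RefSeq on GRCh38.p14 and on the strand of the gene. ERRFI1 and HBEGF are shown because their brightest probe sets had the largest changes of the family at 16 h, and EREG because its window alone among the 5 genes that rose held a match to a searched motif. Capitals mark that match, the letters TATAAA of a TATA box. The ERRFI1 window lies at chr1:8026310-8026559 on the minus strand, the HBEGF window at chr5:140346604-140346853 on the minus strand and the EREG window at chr4:74364895-74365144 on the plus strand.
ERRFI1: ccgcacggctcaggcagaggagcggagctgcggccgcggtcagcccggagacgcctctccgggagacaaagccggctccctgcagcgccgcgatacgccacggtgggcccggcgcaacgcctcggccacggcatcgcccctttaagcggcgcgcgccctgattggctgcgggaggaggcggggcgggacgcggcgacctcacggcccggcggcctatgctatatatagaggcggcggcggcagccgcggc
HBEGF: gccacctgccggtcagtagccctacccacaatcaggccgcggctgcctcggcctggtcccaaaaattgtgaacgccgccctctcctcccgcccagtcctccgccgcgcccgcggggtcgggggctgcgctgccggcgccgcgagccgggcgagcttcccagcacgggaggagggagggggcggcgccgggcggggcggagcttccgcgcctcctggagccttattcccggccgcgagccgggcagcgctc
EREG: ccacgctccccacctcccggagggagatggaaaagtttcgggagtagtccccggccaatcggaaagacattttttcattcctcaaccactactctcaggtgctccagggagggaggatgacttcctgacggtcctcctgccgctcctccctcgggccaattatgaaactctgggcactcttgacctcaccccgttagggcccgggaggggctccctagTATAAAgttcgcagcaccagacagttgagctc

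The windows were searched on both strands for TGANTCA of AP-1, TGACGTCA of the cyclic AMP response element, TGATGNAA of the amino acid response element, TGACNNNGC of the antioxidant response element, CCGGAAGT of ETS factors and TATAAA. In ERRFI1, HBEGF, TGFA and BTC none of the 6 letter strings occurred upstream of the outermost start, and EREG held TATAAA beginning 32 bases before its start. TATAAA occurred in 10.7% of all 35116 promoter windows of this length, TGANTCA in 6.57%, TGACGTCA in 1.65%, TGATGNAA in 3.14%, TGACNNNGC in 10.9% and CCGGAAGT in 3.42%. ERBB2, which did not pass the test at 16 h, held 1 match to TGANTCA and 2 to CCGGAAGT. The outermost EGFR window held none, and the window of a second EGFR start held 2 matches to TGANTCA and 2 to TATAAA. AREG, not analysed on the arrays, held 1 match to TGACGTCA and 1 to TATAAA. No window of ERBB3 or NRG1 was searched. The ERRFI1 and HBEGF windows consisted of G and C at 75.2% and 76.4%, and the EREG window at 58%, equal to the median of all windows. A match describes letters in a window and does not show a bound site.

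Signal on these arrays is a log2 value made by GCRMA, a method that corrects background and normalises arrays to each other, and levels of different probe sets cannot be set against each other. Bacterial control probe sets without added RNA served as a background mark, and the highest of them reached 1.87 to 2.28 on the 12 arrays. Of the 35 probe sets of the family, 12 exceeded that mark on all 12 arrays, 12 on some arrays and 11 on none. Each gene was represented by its brightest probe set on average, and it was tested if that average reached 2.11, the median level of the array's probe sets. The test covered 12635 genes, 8 of them in the family. A gene is described as risen or fallen where limma with Benjamini-Hochberg adjustment over all tested genes gave an adjusted p below 0.05. Errors are the SE of the model for log2 changes and the SD over 3 arrays for levels.

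Epithelial identity and RNA controls were read from the same arrays. All 7 measured epithelial and prostate markers (KLK3, KRT8, KRT18, HOXB13, EPCAM, FOXA1 and CDH1) exceeded the background mark on all 12 arrays, with a summed log2 signal of 60.2 to 61.3 on the 16 h arrays and 61.8 to 62.1 on the vehicle arrays. Of these KRT18 rose by 0.20 ± 0.06 at 16 h, and FOXA1 and HOXB13 fell by 0.25 ± 0.07 and 1.06 ± 0.09 (log2, SE, limma adjusted p = 0.0205, 0.0164 and 2.78e-06). Without 16 h replicate 3, vehicle replicate 2 or vehicle replicate 3 none of the 7 passed as risen. With the 6 arrays compared fitted alone none passed as risen and 1 as fallen. Of the 6 fibroblast markers COL1A2 and PDGFRB did so on none, while COL1A1 and LUM rose at 16 h by 2.05 ± 0.20 and 1.25 ± 0.18 (log2, SE, limma adjusted p = 1.04e-05 and 0.000217) and DCN and COL3A1 fell by 0.58 and 0.37. The summed log2 signal of these 6 markers was 19.1 to 19.7 on the 16 h arrays and 16.1 to 17.8 on the vehicle arrays, while that of 4 leukocyte markers was 6.72 to 7.39 and 7.24 to 7.67, and that of 5 endothelial markers 8.52 to 8.74 and 8.27 to 9.13. No leukocyte marker exceeded the mark on all arrays, and of the endothelial markers only PECAM1 did. The 3' minus 5' difference of the ACTB control was 4.09 ± 0.09 on 16 h arrays and 2.80 ± 0.07 on vehicle arrays (SD, n = 3), and the same difference for GAPDH was -0.43 ± 0.04 at 16 h and -0.46 ± 0.02 with vehicle. The control for 18S ribosomal RNA gave 11.06 ± 0.10 at 16 h, 9.62 ± 0.29 with vehicle, and lower values than vehicle at 4 h and 6 h, 8.98 ± 0.14 and 8.64 ± 0.19. Each of these ACTB and 18S differences from vehicle had an exact two-sided permutation p = 0.1, the smallest that 3 against 3 arrays allow. The part of these controls and markers in the changes below was not tested. In bulk RNA, fewer cells expressing a gene and less RNA per cell cannot be told apart.

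At 16 h against vehicle the ligand genes HBEGF, BTC, TGFA and EREG and the inhibitor gene ERRFI1 rose, and the receptor gene ERBB3 fell. EGFR and ERBB2 did not pass on the probe set that stood for the gene, NRG1 did not reach the signal needed for a test, and AREG was not analysed. That was 5 of 8 tested members up and 1 down, with EREG among the 5 although it reached the test only through its 16 h arrays, beside 26% of all tested genes up, 16.8% down and 42.8% changed in either direction. The 16 h and vehicle arrays did not overlap for 7 of the 8, EREG included, nor for 51.5% of all tested genes. At 4 h 1 of the 8, ERRFI1, rose, where 0.332% of all tested genes rose and 0.459% changed. At 6 h none of the 8 passed, where 0.0317% of all tested genes changed. Among the 15 tested probe sets of the family 7, that of EREG included, rose and 2 fell at 16 h, where 23% and 16.7% of all tested probe sets did. The median log2 change of the 8 tested members at 16 h was 0.98, against 0.05 for all tested genes. This median also counts EREG and is therefore favoured by the filter. The members were chosen with earlier results of these data known, so these counts are not independent of those results.

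**Figure D1:**
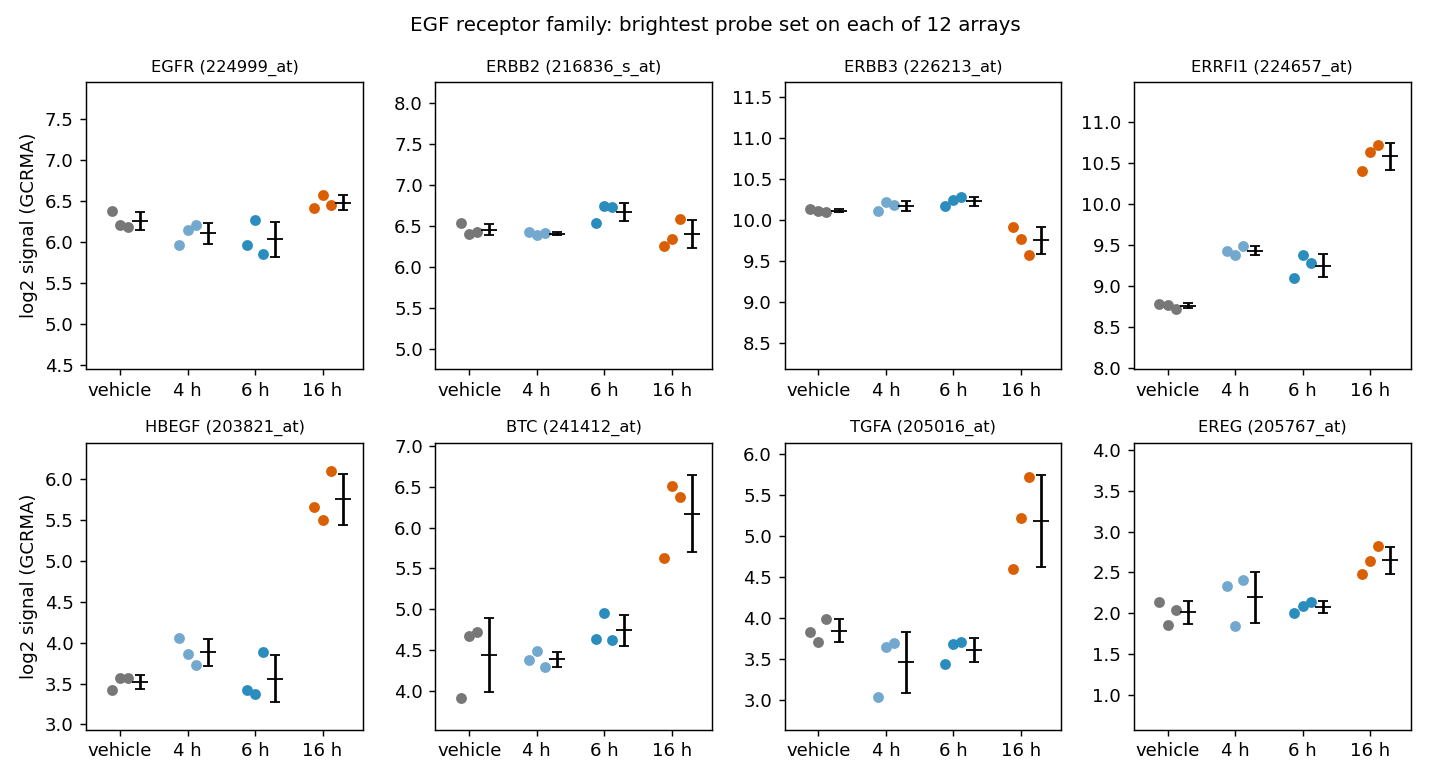
Log2 signal (vertical axes, each spanning the same range of log2 units) of the brightest probe set of the 8 tested genes on each of the 12 arrays, by group, with the mean and SD of 3 arrays as a bar beside the points. ERRFI1 stands above vehicle at all times, HBEGF, BTC and TGFA are highest on the 16 h arrays, and ERBB3 is lowest there.

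HBEGF encodes heparin-binding EGF-like growth factor, a ligand of EGFR and ERBB4. Its probe set 203821_at gave 5.65, 5.50 and 6.10 on the 16 h arrays, against 3.42, 3.57 and 3.57 on the vehicle arrays. All 3 of the 16 h arrays lay above every other array of the study. The signal was 4.69-fold higher at 16 h (log2 change 2.23 ± 0.16 SE, limma adjusted p = 1.03e-06), the largest change among the probe sets that stood for a gene. The mean of the 4 HBEGF probe sets, which includes 2 at background, rose by 0.93. At 4 h the arrays gave 4.05, 3.86 and 3.73, and at 6 h they gave 3.42, 3.37 and 3.89. The 4 h arrays did not overlap with vehicle, but the difference of 0.36 ± 0.16 did not pass (adjusted p = 0.456), and at 6 h the difference was 0.04 ± 0.16 (adjusted p = 0.971). A second HBEGF probe set, 38037_at, gave 4.13, 4.13 and 4.73 at 16 h, against 2.76, 2.92 and 2.56 with vehicle. It also rose, by 1.59 ± 0.16 (limma over all tested probe sets, adjusted p = 1.59e-05). The remaining HBEGF probe sets, 244857_at and 222076_at, stayed at 1.18 to 1.72 on every array and never exceeded the background mark.

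BTC encodes betacellulin, a ligand of EGFR and ERBB4. On probe set 241412_at the 16 h arrays gave 5.63, 6.51 and 6.37, and the vehicle arrays 3.92, 4.68 and 4.72. Every 16 h array lay above every vehicle array, with 16 h replicate 1 and vehicle replicate 1 each below their partners. The signal was 3.32-fold higher at 16 h (log2 change 1.73 ± 0.24 SE, limma adjusted p = 0.000131). The 4 h arrays gave 4.38, 4.49 and 4.30 and the 6 h arrays 4.64, 4.96 and 4.63. Both groups overlapped with vehicle, with differences of -0.05 ± 0.24 and 0.31 ± 0.24 (adjusted p = 0.961 and 0.798). The other BTC probe set, 207326_at, gave 1.98, 2.09 and 1.86 at 16 h and 2.05, 1.81 and 2.35 with vehicle, was near the background mark and was not tested. The BTC rise therefore rests on 1 probe set.

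TGFA encodes transforming growth factor alpha, a ligand of EGFR. Probe set 205016_at gave 4.60, 5.22 and 5.72 at 16 h, against 3.83, 3.71 and 3.99 with vehicle. The 16 h arrays were all above the vehicle arrays but spread over more than a log2 unit. The signal was 2.52-fold higher at 16 h (log2 change 1.33 ± 0.24 SE, limma adjusted p = 0.000932). At 4 h the values were 3.03, 3.65 and 3.69, all below the vehicle arrays, and the difference of -0.39 ± 0.24 did not pass (adjusted p = 0.597). At 6 h the values were 3.44, 3.68 and 3.71, which overlapped with vehicle (-0.23 ± 0.24, adjusted p = 0.857). A second tested TGFA probe set, 211258_s_at, lay at 2.02 to 2.45 on all arrays and differed by -0.05 ± 0.12 at 16 h (adjusted p = 0.756). The remaining probe set, 205015_s_at, never exceeded the background mark.

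EREG encodes epiregulin, a ligand of EGFR and ERBB4 that several cell types make in response to growth factors. Probe set 205767_at gave 2.48, 2.64 and 2.82 at 16 h, against 2.14, 1.86 and 2.04 with vehicle. The 16 h arrays all exceeded the background mark, whereas 1 of 3 vehicle arrays did, so the vehicle level lay close to background. The fitted log2 change of 0.63 ± 0.14 SE (limma adjusted p = 0.00326) is therefore measured against a signal hardly above it, with 4 h values of 2.34, 1.84 and 2.41 and 6 h values of 2.00, 2.09 and 2.14. EREG passed the filter on signal only through its 16 h arrays, since the mean of the other 9 arrays was 2.10, so a difference at 16 h was favoured by the filter. The other probe set, 1569583_at, never exceeded the background mark.

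NRG1 encodes neuregulin 1, a ligand of ERBB3 and ERBB4 with many splice forms. Its 6 probe sets ranged from 0.58 to 2.09 over all arrays, 3 of them never exceeded the background mark, and none reached the mean needed for a test. The brightest, 208241_at, gave 1.86, 1.90 and 1.80 at 16 h and 1.92, 2.03 and 1.98 with vehicle. The other 3 probe sets exceeded the mark on 1 or 2 of the 12 arrays, so NRG1 RNA was not detectable above background in most of the samples.

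**Figure D2:**
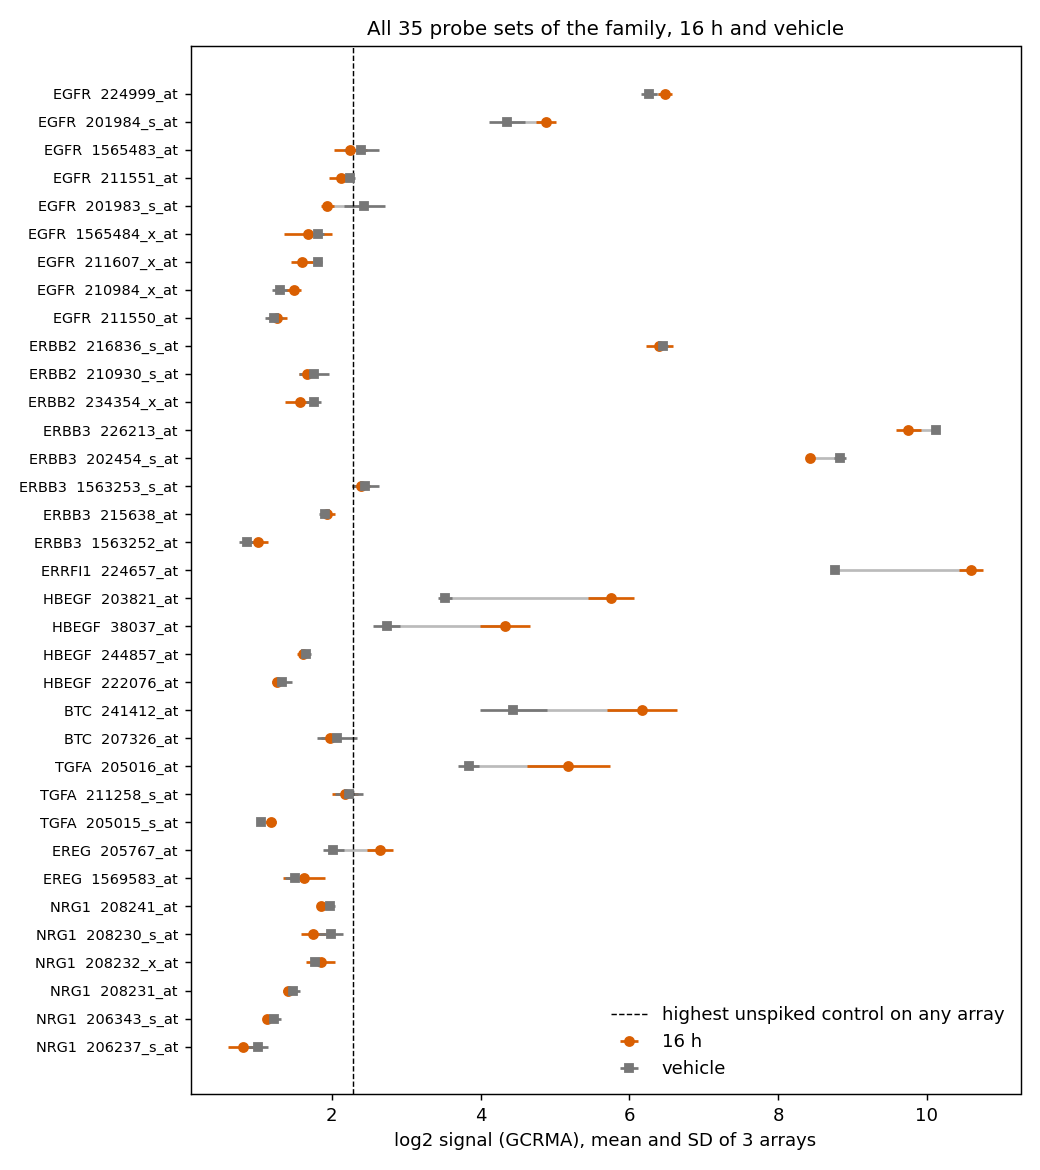
Mean log2 signal with SD (horizontal axis, n = 3 arrays) of all 35 probe sets of the family on 16 h arrays (circles) and vehicle arrays (squares), with the highest unspiked control on any array, 2.28, as a dashed line. Most of the probe sets lie near or below that line, and the NRG1 probe sets all do.

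ERBB3 encodes the receptor with little kinase activity that binds neuregulins and, once phosphorylated by a partner, recruits PI3 kinase. On probe set 226213_at the 16 h arrays gave 9.91, 9.77 and 9.58, and the vehicle arrays 10.14, 10.11 and 10.10. All 16 h arrays were the lowest of the study. The log2 change was -0.36 ± 0.08 SE (1.29-fold, limma adjusted p = 0.00339). At 4 h and 6 h the differences were 0.06 ± 0.08 and 0.11 ± 0.08 (adjusted p = 0.839 and 0.778). Probe set 202454_s_at gave 8.49, 8.41 and 8.39 at 16 h, against 8.73, 8.87 and 8.88 with vehicle. It fell by 0.40 ± 0.07 (adjusted p = 0.000717 over all tested probe sets), a change of similar size on a separate probe set of the gene. The dim probe set 1563253_s_at lay between 2.26 and 2.76 and differed by -0.06 ± 0.10 (adjusted p = 0.651). The remaining pair, 215638_at and 1563252_at, was not tested and stayed at 0.79 to 2.06. With the mean of all ERBB3 probe sets, which includes the dim ones, the change was -0.13 and did not pass (adjusted p = 0.0628).

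EGFR encodes the receptor bound by HBEGF, TGFA, BTC and EREG. Probe set 224999_at gave 6.41, 6.58 and 6.45 at 16 h, against 6.38, 6.21 and 6.18 with vehicle. The groups did not overlap, but the difference of 0.22 ± 0.11 did not pass (limma adjusted p = 0.116, 95% interval -0.01 to 0.46). On 201984_s_at the 16 h arrays gave 4.95, 4.96 and 4.73, against 4.63, 4.30 and 4.16 with vehicle. This probe set rose by 0.52 ± 0.15 (adjusted p = 0.0161 over all tested probe sets), so the pair of brightest EGFR probe sets fell on opposite sides of the threshold. At 4 h and 6 h they differed from vehicle by -0.15 and 0.19 and by -0.22 and 0.15, and none of these differences passed. The other 7 EGFR probe sets lay at 1.05 to 2.76, and 3 of them never exceeded the background mark. Among them 201983_s_at gave 1.87, 1.90 and 2.04 at 16 h, all below its vehicle values of 2.76, 2.22 and 2.34. It exceeded the mark on 5 of the 12 arrays, and its mean of 2.08 was short of the 2.11 needed for a test. Of the 7, 1565483_at and 211551_at exceeded the mark on all 12 arrays and were tested. They differed by -0.15 ± 0.14 and -0.12 ± 0.15 at 16 h (adjusted p = 0.432 and 0.564).

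ERBB2 encodes the receptor that acts as the preferred partner of the others. Probe set 216836_s_at gave 6.26, 6.34 and 6.59 at 16 h, against 6.53, 6.40 and 6.43 with vehicle. The groups overlapped, and the difference was -0.06 ± 0.09 with a 95% interval of -0.25 to 0.14 (limma adjusted p = 0.638). At 6 h the arrays gave 6.54, 6.74 and 6.73, all above the vehicle arrays, but the difference of 0.21 ± 0.09 did not pass (adjusted p = 0.548). The 4 h values of 6.42, 6.39 and 6.41 differed from vehicle by -0.05 ± 0.09 (adjusted p = 0.881). The remaining ERBB2 probe sets, 210930_s_at and 234354_x_at, stayed at 1.35 to 2.22 and were not tested.

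ERRFI1 was measured by 1 probe set, 224657_at. Its values were 8.78, 8.76 and 8.72 with vehicle, 9.43, 9.37 and 9.48 at 4 h, 9.09, 9.37 and 9.28 at 6 h, and 10.40, 10.63 and 10.72 at 16 h. Every treated array lay above every vehicle array. At 4 h ERRFI1 was 1.59-fold higher (log2 change 0.67 ± 0.09 SE, limma adjusted p = 0.0062), and leaving out any single array of these groups gave adjusted p of 0.0273 to 0.0444. In the test over probe sets it also rose at 4 h (adjusted p = 0.0149), but there leaving out any array of these groups other than vehicle replicate 2 ended the call. At 6 h the difference of 0.49 ± 0.09 did not pass in the test over genes (adjusted p = 0.165) and passed in the test over probe sets (adjusted p = 0.0436), again lost without any array of these groups other than vehicle replicate 2. ERRFI1 was the 1 probe set of the family called at either time in that test, where 0.168% of all tested probe sets rose at 4 h and 0.0476% at 6 h. At 16 h it was 3.56-fold higher (1.83 ± 0.09, adjusted p = 6.1e-08). The difference between 6 h and 4 h was -0.18 ± 0.09 and did not pass (adjusted p = 0.563).

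**Figure D3:**
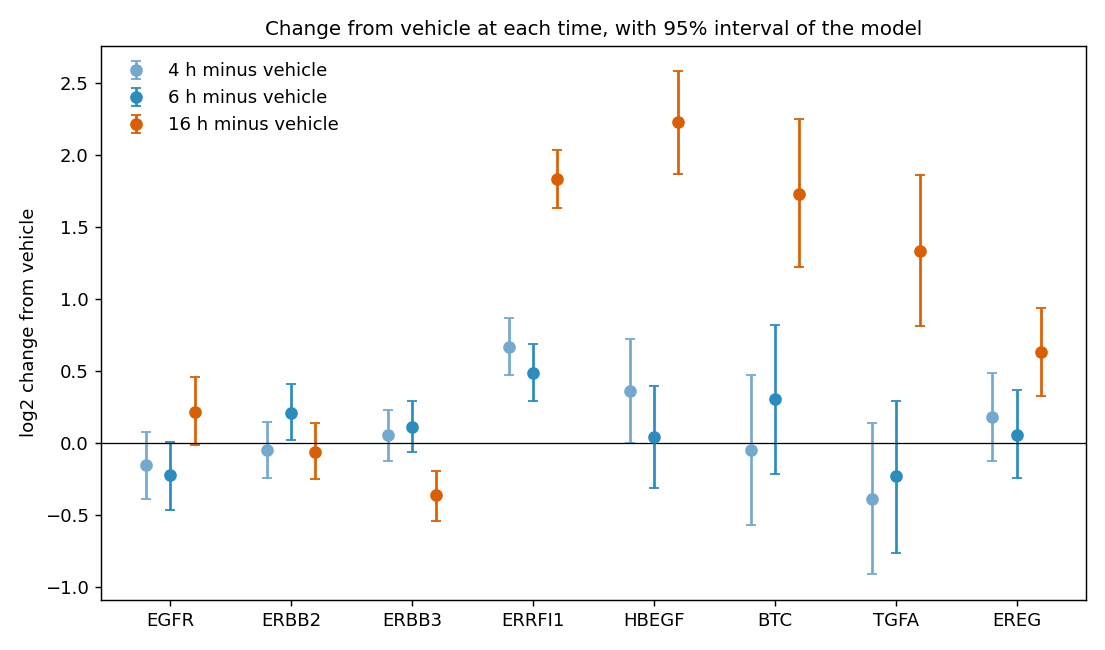
Log2 change from vehicle (vertical axis) of the 8 tested genes at 4 h, 6 h and 16 h, as the estimate of the linear model with its 95% interval. ERRFI1 has intervals above 0 at all times, HBEGF, BTC, TGFA and EREG rise by 2.23, 1.73, 1.33 and 0.63 at 16 h, and ERBB3 falls by 0.36 at 16 h. The intervals are not adjusted for the number of genes. At 6 h those of ERRFI1 and ERBB2 lie above 0, and neither gene passed there. EREG reached the test only through its 16 h arrays.

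The comparison of 16 h with the earlier times does not use the vehicle level, but it shares the 16 h arrays with the comparison above, and its errors pool the spread of all 12 arrays. Against 6 h all 8 tested members passed, 6 up and 2 down, where 42.7% of all tested genes passed, 25.1% up and 17.6% down. EREG, which reached the test only through its 16 h arrays, counts among the 8. HBEGF, TGFA, BTC and ERRFI1 were higher by 2.19 ± 0.16, 1.57 ± 0.24, 1.43 ± 0.24 and 1.34 ± 0.09, and EREG and EGFR by 0.57 ± 0.14 and 0.45 ± 0.11. ERBB3 was lower by -0.48 ± 0.08 and ERBB2 by -0.27 ± 0.09 (log2, SE, limma adjusted p of 0.0285 for ERBB2 and at most 0.00603 for the others). The ERBB2 arrays of 16 h and 6 h overlapped, and its call was lost without 16 h replicate 1 or 2 and without 6 h replicate 2 or 3 (adjusted p = 0.101, 0.0887, 0.0945 and 0.0868), with the 6 arrays compared fitted alone (0.0807) and with the mean of probe sets (0.0796). Against 4 h 7 of the 8 passed, 6 up and 1 down, where 40.9% of all tested genes passed, 24.8% up and 16.1% down. ERBB2 was the exception, with a difference of -0.01 ± 0.09. EGFR was higher by 0.38 ± 0.11 (adjusted p = 0.0156), a call lost without 16 h replicate 2 (0.061) or 4 h replicate 1 (0.0655). The second brightest EGFR probe set, 201984_s_at, was higher by 0.33 against 4 h and 0.37 against 6 h and did not pass (adjusted p = 0.109 and 0.073). With the mean of all EGFR probe sets the differences were 0.04 against 4 h and 0.02 against 6 h and did not pass (adjusted p = 0.662 and 0.863). EREG was higher by 0.45 ± 0.14 (adjusted p = 0.0224), a call lost without 16 h replicate 2 (0.0543), 16 h replicate 3 (0.0893) or 4 h replicate 2 (0.0772), and with the 6 arrays compared fitted alone (0.0581). Between 6 h and 4 h no tested member passed, where 0.095% of all tested genes did. ERBB2 differed by 0.26 ± 0.09 between these times (log2, SE, limma adjusted p = 0.448).

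Genes around the receptors were taken from lists of pathway members. The lists, like the members, were chosen with earlier results of these data known, so their counts are not independent of those results. Of 22 genes listed as ERK-induced targets and feedback regulators, 21 were tested, and at 16 h 15 rose and 1 fell, where 26% of all tested genes rose and 16.8% fell. The median log2 change was 0.76, against 0.05 for all tested genes. FOS, an AP-1 subunit, gave 6.40, 6.97 and 7.20 at 16 h and 2.69, 2.62 and 2.87 with vehicle, and rose 17.5-fold (limma adjusted p = 8.72e-09). The zinc finger factor gene EGR1 rose 5.61-fold, and the MAP kinase phosphatase genes DUSP5 and DUSP6, which switch ERK off, rose 5.11-fold and 3.87-fold (log2 SE 0.06, 0.14 and 0.11). The gene that fell was MYC, by 0.52 ± 0.07 on the log2 scale (adjusted p = 9.32e-05). The 5 that did not pass were CCND1, SPRY4, ETV4, ETV1 and PLAUR, with differences of -0.14, 0.01, 0.15, -0.02 and -0.06. They are named after their values were seen. At 4 h EGR1 rose by 0.83 ± 0.06 (adjusted p = 0.000326) and MYC fell by 0.40 ± 0.07 (adjusted p = 0.0225), alone in this list, and at 6 h none of the 21 passed.

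Of 19 genes of receptor endocytosis and degradation, all tested, 7 rose and 2 fell at 16 h (median log2 change 0.28). With 26% of all tested genes up and 16.8% down, this count is not far from the background. CBLB, a ubiquitin ligase that marks activated receptors for degradation, gave 6.60, 6.65 and 6.72 at 16 h and 4.93, 5.17 and 5.10 with vehicle, and rose 3.01-fold (1.59 ± 0.10, limma adjusted p = 4.49e-07). SH3KBP1, an adaptor that links CBL proteins to endocytosis, rose by 0.77 ± 0.17, the endosomal sorting gene STAM2 by 0.64 ± 0.18 and the late endosome GTPase gene RAB7A by 0.61 ± 0.07 (adjusted p = 0.00287, 0.0132 and 5.54e-05). The number of risen genes in this list was 12 without 16 h replicate 1.

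Of 16 genes of ligand shedding 14 were tested, and at 16 h 6 rose and 2 fell (median log2 change 0.17), beside 26% of all tested genes up and 16.8% down. The share that fell is close to that of all genes. ADAM17, the metalloprotease that releases HBEGF, TGFA and EREG from the membrane, gave 8.32, 8.32 and 8.57 at 16 h and 7.61, 7.87 and 7.69 with vehicle. It rose by 0.68 ± 0.09 (limma adjusted p = 8.26e-05). FRMD8, which stabilises the complex of ADAM17 with its rhomboid partner, rose by 0.82 ± 0.08 (adjusted p = 8.12e-06). The genes that fell were ADAM15, a metalloprotease, by 0.62 ± 0.10, and FURIN, the protease that activates precursors of such enzymes, by 0.39 ± 0.12 (adjusted p = 0.000514 and 0.0184). The fall count was 1 without 16 h replicate 1, vehicle replicate 2 or vehicle replicate 3. In no list of shedding, degradation or cascade genes did a gene pass at 4 h or 6 h.

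Of 24 genes of adaptors and kinase cascades 16 had a probe set under their symbol and were tested, the others not being analysed here. At 16 h 3 rose and 4 fell, with a median log2 change of -0.05, a count near the 42.8% of all tested genes that changed. AKT1, the kinase downstream of PI3 kinase, gave 7.02, 6.71 and 7.16 at 16 h and 7.90, 8.02 and 8.02 with vehicle. It fell by 1.02 ± 0.11 (limma adjusted p = 2.56e-05). HRAS fell by 0.68 ± 0.09 and the ERK-activating kinase gene MAP2K2 by 0.48 ± 0.08, and SOS2, an exchange factor that loads RAS with GTP, rose by 1.01 ± 0.11 (adjusted p = 0.000103, 0.000575 and 1.85e-05). Among 6 other EGF family genes, 1 was tested: ERBB4, the neuregulin receptor, gave 4.42, 4.76 and 4.60 at 16 h and 4.66, 5.04 and 4.86 with vehicle. The difference of -0.26 ± 0.11 did not pass (adjusted p = 0.0913), but passed without 16 h replicate 2 (0.0473), without vehicle replicate 1 (0.0356) and with quantile normalisation (0.0161). Over all 15 alternatives the difference ranged from -0.35 to -0.01 (limma adjusted p = 0.016 to 0.957). Against 4 h ERBB4 fell by 0.34 ± 0.11 (adjusted p = 0.0339), a call lost without 16 h replicate 1 (0.119) or 3 (0.072), without 4 h replicate 2 (0.0851) or 3 (0.0995), and with the mean of probe sets (-0.04, 0.697).

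**Figure D4:**
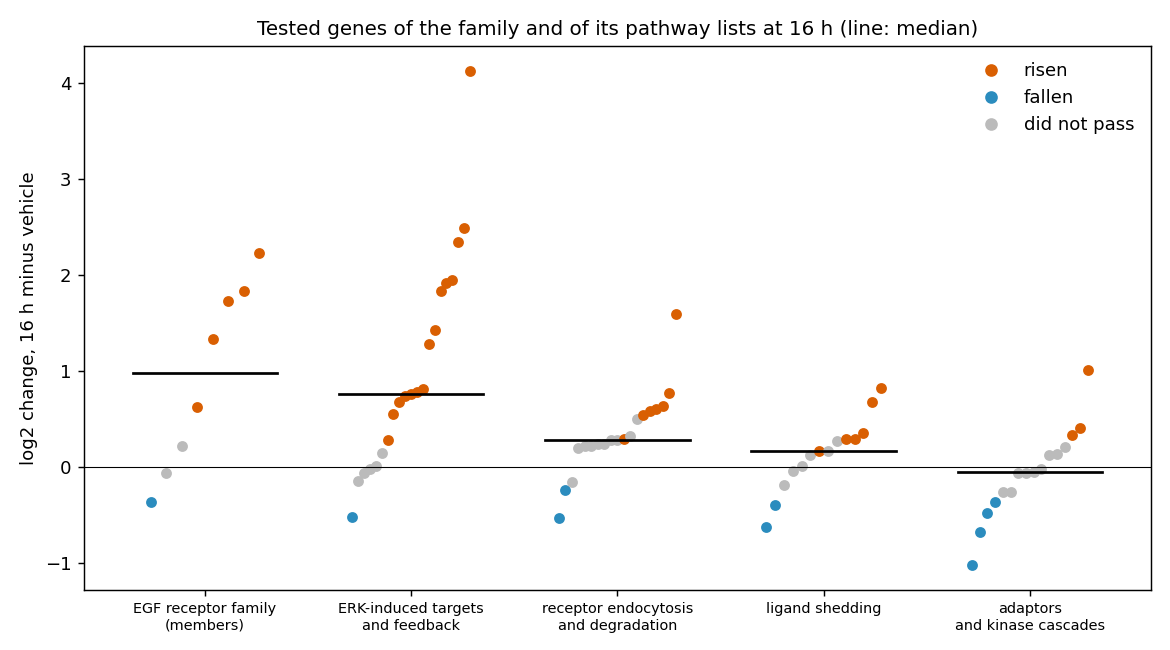
Log2 change at 16 h against vehicle (vertical axis) of each tested gene of the EGF receptor family and of 4 pathway lists, coloured by whether the gene rose, fell or did not pass, with a line at the median of each list. The median is 0.98 for the family, 0.76 for ERK-induced targets, 0.28 for endocytosis and degradation, 0.17 for shedding and -0.05 for adaptors and cascades. The family median counts EREG, which reached the test only through its 16 h arrays.

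Genes with the most similar course were found by the root mean square difference of log2 values over the 12 arrays, each gene taken relative to its own vehicle mean. Closest to ERRFI1 were PTGER4, SLC7A11 and PPP1R15A, at 0.16, 0.18 and 0.20, where the median over all tested genes was 0.99. PTGER4 had changes of 0.71, 0.38 and 2.08 at 4 h, 6 h and 16 h, set beside 0.67, 0.49 and 1.83 for ERRFI1. Closest to HBEGF were OSER1, DUSP6 and TNFRSF10B, each at 0.21 (median 1.1). Closest to BTC were MSRB3, TP53INP1 and TFE3, at 0.22, 0.25 and 0.27 (median 0.91), and closest to TGFA were GOLT1A, FAS and LOC100996756, at 0.23, 0.24 and 0.27 (median 0.75). EREG lay nearest to NEU3, NINJ2-AS1 and SFMBT2, at 0.12, 0.12 and 0.13 (median 0.38), and ERBB3 nearest to GMNN, MRPL41 and DNAJC9, at 0.059, 0.060 and 0.061 (median 0.28). All these gene pairs share the same 12 arrays and the vehicle mean, and the 16 h arrays contribute most of the range.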

How the data were processed

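The authors deposited log2 values of 54675 probe sets for 12 arrays; GCRMA is named, without a version, in the submitters' processing notes. Per the labels' protocols, RNA was amplified from the 3' end, so a probe set reports a short part of a transcript. Precision is limited by the number of arrays, scanner files were not analysed, and the build behind the probe set annotation is not given in the sources used here. Symbols came from the platform annotation, updated through Entrez identifiers against a RefSeq table (41037 updated, 54 kept); 1801 probe sets had several symbols, 11777 were not listed, and 62 controls were set aside. One linear model with 4 group means was fitted to 12635 genes, and again to 27306 probe sets (limma 3.58.1, R 4.3.3, lmFit and eBayes, two-sided, 8 residual degrees of freedom), and checked on simulated data. The members and lists were chosen with earlier results of these data known. Named were all members, the up to 4 list genes with the largest changes at 16 h, list genes changed earlier, and the 3 nearest genes per changed member. Alternatives covered normalisation, filter, probe set choice, prior, a replicate block, the arrays fitted and each array left out.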

Additional observations from a re-analysis of the deposited data

Results flagged for a closer look

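The change from vehicle differed between 16 h and an earlier time for the tested members, by limma's test between times. For ERBB2 this rests on 6 h alone and did not hold without any of 4 single arrays, when the probe sets of the gene were averaged, or in a fit of the 6 arrays compared. For EGFR it did not hold at either time when its probe sets were averaged. EREG reached the test only through its 16 h arrays, so a difference at 16 h was favoured by the filter. Its difference from 4 h did not hold without 16 h replicate 2 or 3 or 4 h replicate 2, or in a fit of the 6 arrays compared. Between 16 h and 4 h the log2 differences were 1.87 for HBEGF, 1.78 for BTC, 1.72 for TGFA, 1.16 for ERRFI1, 0.45 for EREG, 0.38 for EGFR and -0.42 for ERBB3. Between 16 h and 6 h they were 2.19 for HBEGF, 1.57 for TGFA, 1.43 for BTC, 1.34 for ERRFI1, 0.57 for EREG, 0.45 for EGFR, -0.27 for ERBB2 and -0.48 for ERBB3. Differences between times were common on these arrays: 40.9% of all tested genes passed between 16 h and 4 h, and 42.7% between 16 h and 6 h.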

How the results depend on the processing

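The 48 log2 changes of tested members (8 genes, 6 comparisons) were recomputed under 696 alternative values, of which 666 kept direction and side of the threshold, 15 lost and 2 gained the call, and 13 changed sign, none of them called. At 16 h against vehicle 3 members passed with the 75th percentile filter, which removed HBEGF, TGFA and EREG, against 6 in the main test. That filter gave 4 against 7 between 16 h and 4 h, and 5 against 8 between 16 h and 6 h, as did the mean of probe sets (5). At 6 h 1 member, ERRFI1, passed when probe sets were averaged and also with the trended and robust prior (1). Among probe sets the 75th percentile filter gave 5 at 16 h, 5 between 16 h and 4 h and 6 between 16 h and 6 h. At 6 h the single call fell to 0 with median centring, no filter (0), only the 6 arrays compared (0) and quantile normalisation (0). Leaving out one array gave 0 to 1 probe sets at 4 h and 0 to 1 at 6 h. The sign changed with the mean of probe sets for EGFR at 16 h against vehicle (-0.02) and at 6 h against 4 h (0.02), and for ERBB2 at 4 h against vehicle (0.07). Leaving out single arrays gave ranges that crossed 0 for BTC (-0.31 to 0.09) at 4 h, EREG (-0.02 to 0.12) and HBEGF (-0.12 to 0.14) at 6 h, ERBB2 at 16 h against vehicle (-0.15 to 0.01) and against 4 h (-0.11 to 0.06), and EGFR (-0.19 to 0.01) and TGFA (-0.06 to 0.27) at 6 h against 4 h. The single values after the sign change were 0.07 and 0.09 for BTC, 0.01 for EGFR, 0.06 and 0.02 against 4 h and 0.01 against vehicle for ERBB2, -0.02 for EREG, -0.12 and -0.01 for HBEGF and -0.06 for TGFA. With the mean of probe sets, HBEGF, BTC and TGFA rose at 16 h by 0.93, 0.82 and 0.47. ERBB3 did not pass with that mean, and EREG fell below the filter and was not tested. The causes were not tested.

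Over all genes, the 58 changed at 4 h became 90 with the 75th percentile filter, 136 with the trended and robust prior and 25 to 42 with one array left out. The 4 at 6 h ranged from 0 to 79 and the 12 between 6 h and 4 h from 0 to 59, and the 16 h counts stayed within 1.5 times. Among probe sets, the 80 at 4 h ranged from 13 to 405 and the 186 at 6 h from 1 to 680, both highest without vehicle replicate 2. In alternatives added after seeing the data, risen ERK targets numbered 8 to 16, risen degradation genes 6 to 12, risen shedding genes 3 to 6 and fallen cascade genes 3 to 7. Same-numbered arrays deviated together weakly: 16 of 18 pairs correlated above 0 and 5 above 0.1 (-0.00455 to 0.235), 4 of these 5 being pairs of replicate 1, and 6 of 12 arrays correlated best with their own number throughout. Not every pair exceeded 0.1, so the main model used no pairing, but this rule cannot show that none exists. With the replicate block the members changed were 1 at 4 h, 0 at 6 h and 6 at 16 h, as without it, while all genes changed at 4 h numbered 84, probe sets 158 at 4 h and 399 at 6 h, and ERBB4 passed as fallen at 16 h (-0.26, adjusted p = 0.016).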
